A study of Sus scrofa with 8 samples.

Results

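Genes of absorptive and BEST4 intestinal cells were read in cultured pig pancreatic ductal cells. The set holds 9 genes: BEST4, OTOP3 and MEIS1 of BEST4 cells, the guanylin pathway genes GUCA2A, GUCA2B and GUCY2C, the absorptive cell genes SLC26A3 and VIL1, and the intestinal transcription factor CDX2. They were selected on an earlier reading of these same libraries, with the difference between the media in view, so that their medium values are given below as a description. Of the 9 genes, 7 have rows in the count table under their symbol, out of 30282 genes in all.

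The cultures are porcine pancreatic ductal organoids (PPDO), grown as hollow epithelial structures from hand-picked ducts in Cultrex matrix. RNA was taken after a week in complete medium (labelled Control) or in differentiation medium, selected by poly(A) and sequenced, for 4 lines and 8 libraries. The column names give the lines as embryonic (Em), late postnatal (LPN) and early postnatal (EPN1 and EPN2), so that Em and LPN are 1 line each and each line has 1 library in each medium. Both media contain N2, B27 without vitamin A, A83-01, Y-27632, nicotinamide and N-acetyl-L-cysteine, and complete medium adds prostaglandin E2, FGF10, EGF, gastrin and the WNT3a, R-spondin1 and noggin factors that differentiation medium lacks. The study kept wild-type and INS-eGFP pigs, and the genotype behind each line is not given in the sources used here. The totals were 40553593 to 47910657 estimated counts per library, at which 3 counts correspond to 0.0626 to 0.0740 CPM (counts scaled to the total of the library). The duct label was checked against 10 markers, none of which was near 0 in all libraries, and their summed level was 6839 to 11259 CPM in complete medium and between 3967 and 14855 CPM in differentiation medium. EPN2 in differentiation medium stood lowest, with KRT7 at 522 CPM against 1218 to 2837 CPM in the other 3 differentiated libraries. CFTR ranged from 2.97 CPM there to 338 CPM in Em in complete medium. PDX1 ranged from 9.58 CPM there to 73.9 CPM in EPN1 in complete medium. The list holds general epithelial markers as well, and only a marker near 0 in every library would fail. The check therefore does not set duct apart from other epithelium.

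BEST4 cells are a rare cell type of the intestinal surface and crypt, named after the calcium-activated anion channel bestrophin 4, and they also carry otopetrin proton channels. Intestinal epithelial cells secrete the peptides guanylin (GUCA2A) and uroguanylin (GUCA2B), which bind the receptor guanylate cyclase C (GUCY2C), raise cGMP and so drive chloride and bicarbonate secretion. Absorptive cells take chloride back through the exchanger SLC26A3 and carry a brush border of microvilli bundled by villin (VIL1), and CDX2 is the homeobox factor that sets intestinal identity. The sources hold bulk RNA, in which fewer cells of a type and less RNA per cell cannot be told apart.

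BEST4 and OTOP3 had higher counts in differentiation medium in 4 of 4 lines, and GUCA2B in Em, LPN and EPN1, by factors that differed widely between lines. EPN2 had the lowest differentiated level of each of these 3 genes. MEIS1 was higher in differentiation medium in 4 of 4 lines, and its media did not overlap. The share of all genes without such overlap is not given here, so nothing is read from this. VIL1 and CDX2 were well expressed in both media in most lines. Averaged over both media, the highest line stood 4.59 times above the lowest for VIL1 and 193 times for CDX2. The ratio of the media means was 1.34 for VIL1 and 1.36 for CDX2, with within-line changes in opposite directions that cancel in part. Whether lines or media differed more was not tested. SLC26A3 was at or under 10 counts in every library.

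BEST4 (ENSSSCG00000003929, chromosome 6, 166540767 to 166547149 in the RefSeq annotation of Sscrofa11.1) had 78 counts in Em, 97 in LPN, 57 in EPN1 and 65 in EPN2 in complete medium. In differentiation medium the same lines had 193, 280, 398 and 86 counts. The TMM-normalised levels were 1.72 ± 0.448 CPM (complete) and 5.21 ± 2.98 CPM (differentiation; SD, n = 4 lines), and the media overlapped because EPN2 in differentiation medium (2.01 CPM) lay below LPN in complete medium (2.36 CPM). The fold within a line was 2.36 in Em, 2.47 in LPN, 6.57 in EPN1 and 1.37 in EPN2, where the 95% interval of counting error ran from 0.979 to 1.92 and so included no change. Across all genes the edgeR quasi-likelihood test without a line term put BEST4 at 1.59 on the log2 scale, with an SE of 0.47 (adjusted p = 0.0790).

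The BEST4 counts came from 2 rows of the custom annotation, which behaved differently. The gene body row had 18, 29, 5 and 3 counts in complete medium in Em, LPN, EPN1 and EPN2, and 145, 174, 332 and 16 in differentiation medium. The row for a 10 kb extension of the gene had 60, 68, 52 and 62 counts in complete medium and 48, 106, 66 and 70 in differentiation medium. Thus the extension gave 81.5% of the BEST4 counts in complete medium and 30.3% in differentiation medium, whereas it gave at most 8.86% in either medium for OTOP3, MEIS1, VIL1 and CDX2. The gene body alone was 7.67-fold higher in differentiation medium in Em (95% interval 4.69 to 13.3), 5.14-fold in LPN (3.45 to 7.90), 62.5-fold in EPN1 (26.5 to 194) and 5.51-fold in EPN2 (1.58 to 29.5). The extension row moved by 0.762, 1.34, 1.19 and 1.17 times in the same lines, and each of these intervals included 1. With extension rows left out for all genes, the log2 fold change of BEST4 was 3.49 (edgeR, adjusted p = 0.0763). Within 10000 bases of BEST4 the annotation places other genes, among them PLK3 at 7033 bases on one side and KIF2C at 9616 bases on the other. Whether reads of neighbouring genes entered the extension row was not tested.

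**Figure D1:**
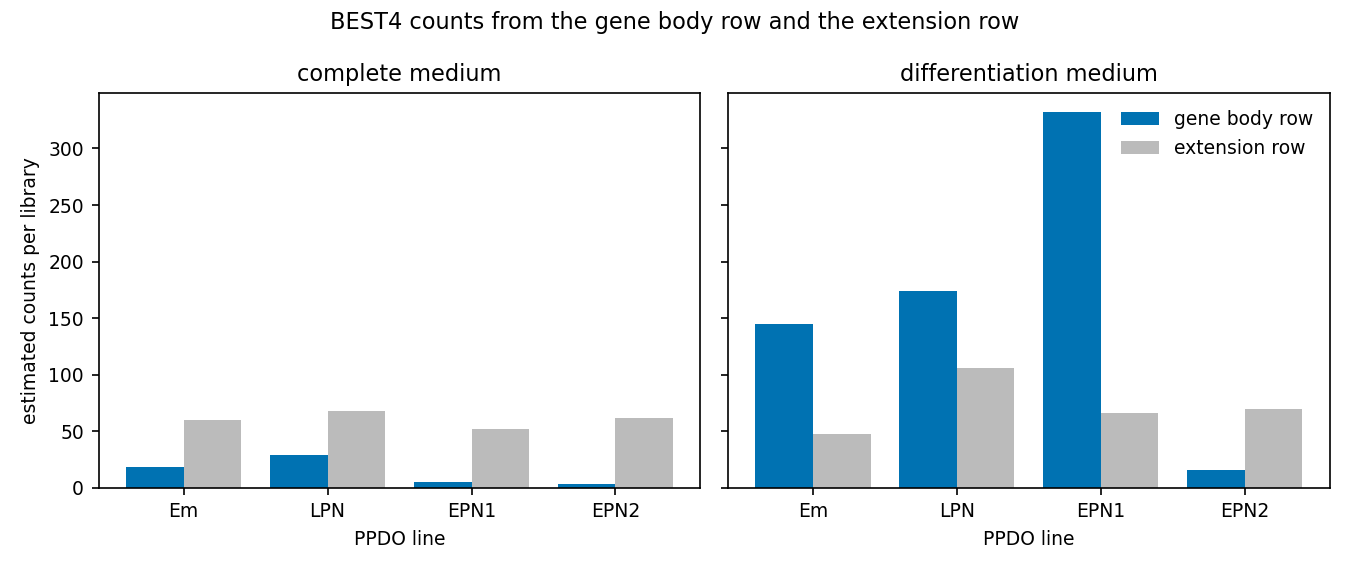
Estimated counts of BEST4 per library (bars from 0) in the 4 PPDO lines, for the gene body row (blue) and the extension row (grey), in complete medium on the left and differentiation medium on the right, with 1 library per bar pair. The blue bars reach 29 counts at most in complete medium and 332 in differentiation medium, while the grey bars stay between 48 and 106 in both.

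OTOP3 (ENSSSCG00000017220, chromosome 12, 6311308 to 6323038), an otopetrin proton channel gene, ranged from 3 to 4663 counts. In complete medium it had 30 counts in Em, 9 in LPN, 37 in EPN1 and 3 in EPN2, and in differentiation medium 4663, 278, 1680 and 17. These counts gave 0.457 ± 0.380 CPM and 35.1 ± 44.0 CPM (SD, n = 4 lines), and the media overlapped only through EPN2, whose 0.397 CPM in differentiation medium lay within the range of complete medium. The within-line folds were 148 in Em (95% interval 104 to 220), 26.5 in LPN (13.7 to 58.5), 42.7 in EPN1 (30.9 to 60.9) and 5.85 in EPN2 (1.69 to 31.2). The log2 fold change was 6.26 (SE 1.62, adjusted p = 0.0578, edgeR), and blocking on the line made it 5.63 (adjusted p = 0.0126). Its neighbour OTOP2, the otopetrin channel gene best known from BEST4 cells, begins 1150 bases away. OTOP2 had 0, 0, 0 and 1 counts in complete medium and 273 in Em, 5 in LPN, 119 in EPN1 and 0 in EPN2 in differentiation medium, at least 86.7-fold higher in Em and at least 37.3-fold higher in EPN1 against a floor of 3 counts per library. OTOP2 was thus high in the same pair of lines in which OTOP3 stood highest.

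MEIS1 (ENSSSCG00000039161, chromosome 3, 75485024 to 75625855), a TALE homeobox factor reported in BEST4 cells but expressed in many tissues, was abundant in every library. It had 2725, 3604, 3226 and 1996 counts in complete medium in Em, LPN, EPN1 and EPN2, and 4504, 5954, 5247 and 4070 in differentiation medium. The levels were 67.4 ± 19.0 CPM and 108 ± 16.1 CPM (SD, n = 4 lines), and the lowest differentiated library (Em, 92.9 CPM) lay above the highest in complete medium (LPN, 87.8 CPM). The fold was 1.57 in Em, 1.41 in LPN, 1.53 in EPN1 and 2.11 in EPN2. EPN2 thus had the largest fold of the 4 lines for MEIS1 and the smallest for OTOP3. In the edgeR test the difference on the log2 scale was 0.68 (SE 0.22, adjusted p = 0.0992), and blocking on the line made it 0.71 (adjusted p = 0.0219).

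GUCA2B (ENSSSCG00000003970, chromosome 6, 169152172 to 169154557), which encodes uroguanylin, was at or under 2 counts in every library in complete medium. In differentiation medium it had 123 counts in Em, 195 in LPN, 389 in EPN1 and 0 in EPN2, or 2.54, 4.07, 8.80 and 0 CPM. The ratio of differentiation to complete medium was 58.6 in Em (95% interval 15.9 to 489), 167 in LPN (29.6 to 6630) and 183 in EPN1 (50.3 to 1517), intervals as wide as 1 or 2 counts in complete medium allow. These baselines lie under the floor of 3 counts. The extension row gave 50% of the counts in complete medium and 0.849% in differentiation medium. In EPN1 the gene body row had 0 counts in complete medium and 385 in differentiation medium, at least 121-fold higher against the floor. EPN2 was under the floor in both media, so no fold is given for it, and 0 counts there allow up to 0.0655 CPM. The gene did not pass the filter on low counts and therefore has no value in the edgeR test.

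The other guanylin pathway members gave no values. GUCA2A, which lies 3888 bases from GUCA2B, was not analysed here, since neither its symbol nor its identifier matched a row. No row carries the symbol GUCY2C, and the identifier that the gene name table gives to GUCY2C stands in the count table under the symbol PLBD1. RefSeq places these as separate genes, so which of them the row measures could not be told and its values were not used. The uroguanylin values therefore stand without values for the receptor.

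SLC26A3 (ENSSSCG00000021813, chromosome 9, 107480629 to 107518771), the apical chloride and bicarbonate exchanger of colonic surface cells, had 1, 0, 0 and 5 counts in complete medium in Em, LPN, EPN1 and EPN2, and 10, 0, 3 and 0 in differentiation medium. Only Em in differentiation medium and EPN2 in complete medium were above 3 counts, and these are opposite media. A medium difference was not detectable at this depth, and the gene did not pass the filter.

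VIL1 (ENSSSCG00000016196, chromosome 15, 120463470 to 120494772), the actin bundling protein of microvilli, is made by ducts as well as by gut and was among the abundant members. It had 8258, 2046, 5027 and 6656 counts in complete medium in Em, LPN, EPN1 and EPN2, and 17250, 3187, 8934 and 2058 in differentiation medium. The fold was 1.99 in Em, 1.33 in LPN and 1.67 in EPN1, but 0.319 in EPN2, and the media overlapped (125 ± 55.4 and 168 ± 143 CPM, SD, n = 4 lines). The log2 fold change was 0.43 (SE 0.66, adjusted p = 0.708, edgeR), and it turned to -0.24 without Em in differentiation medium. In EPN2 the keratins of the duct list were also lower in differentiation medium, with KRT8 at 2271 and 425 CPM and KRT18 at 375 and 45.2 CPM in complete and differentiation medium, and their part in the VIL1 value was not tested.

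CDX2 (ENSSSCG00000009317, chromosome 11, 5339727 to 5346081) had 412 counts in Em, 226 in LPN, 532 in EPN1 and 5 in EPN2 in complete medium, and 1064, 185, 505 and 2 in differentiation medium. The fold was 2.46 in Em, 0.701 in LPN, 0.893 in EPN1 and 0.413 in EPN2 (95% interval 0.0393 to 2.52), so that Em alone was higher in differentiation medium. The log2 fold change was 0.45 (SE 1.43, adjusted p = 0.868, edgeR), and it was -0.41 without Em in differentiation medium and -0.23 without the Em line. CDX1, its close relative, had at most 18 counts in any library.

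**Figure D2:**
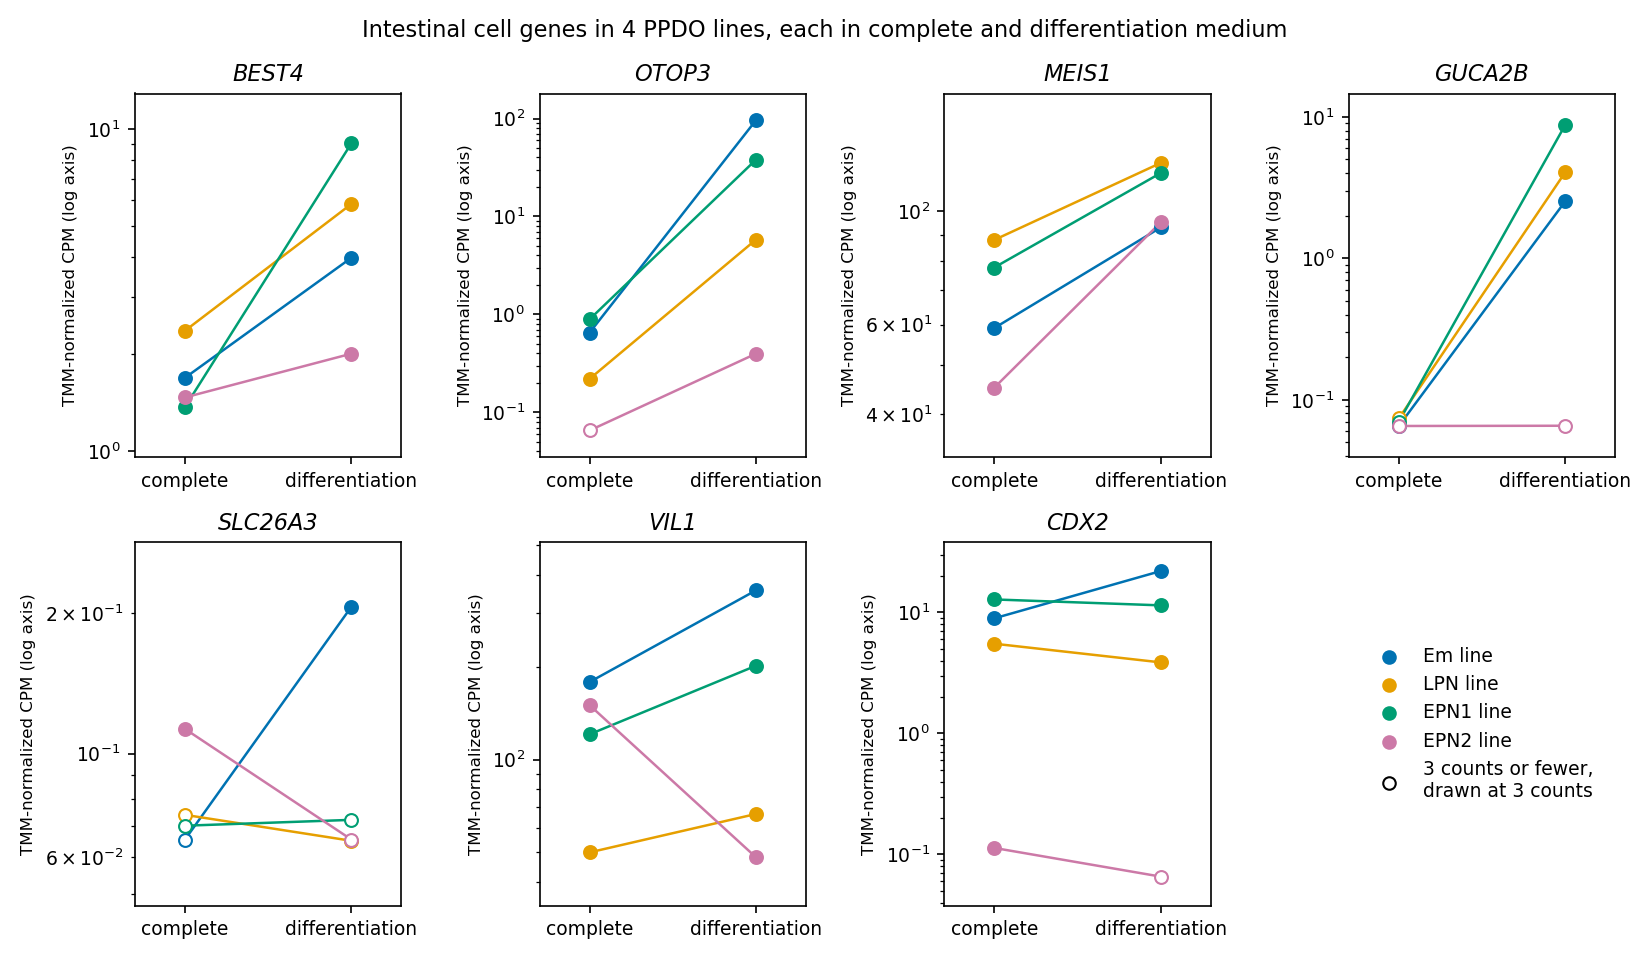
TMM-normalised CPM (log axis, a separate scale per panel) of the 7 members with rows, in complete and differentiation medium, where each point is 1 library, lines join the libraries of 1 PPDO line and open symbols mark 3 counts or fewer, drawn at 3 counts. OTOP3 reaches 96.2 CPM in Em and 0.397 CPM in EPN2, MEIS1 is higher in differentiation medium in all 4 lines, and CDX2 in EPN2 stays at or below 0.113 CPM.

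In the test between media, 0 of the 5 members that passed the filter were called by edgeR at an adjusted p under 0.05, with 3 of 5 at an unadjusted p under 0.05, where 27.3% of all genes lay. Over all 14475 genes tested 6.97% were called, 2.87% as higher and 4.1% as lower in differentiation medium. With the line as a block OTOP3 and MEIS1 were called, against 19.9% of all genes, and DESeq2 without the block called BEST4 (adjusted p = 0.00629), OTOP3 (adjusted p = 7.32e-06), MEIS1 (adjusted p = 0.0387) and GUCA2B (adjusted p = 1.45e-05), against 18.5% of the genes it tested. As the members were chosen on this contrast, nothing is read from these counts. Without EPN2 in differentiation medium edgeR called BEST4 (adjusted p = 0.0391), OTOP3 (adjusted p = 0.0295) and GUCA2B (adjusted p = 0.00667). Over all 14813 genes tested in that setting, 900 were called. GUCA2B, at or under 2 counts in complete medium, passed the filter there only through its differentiated libraries, and nothing is read from these calls either. Each line has 1 library per medium, so the differences between the lines' folds were not tested.

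The difference between lines did not enter the choice of members and was tested across all genes beside a term for the medium. CDX2 was called (edgeR, adjusted p = 0.0266), as 1 of the 5 members tested, against 5.14% of all genes. Its level averaged over both media was 15.4 CPM in Em, 12.1 in EPN1, 4.69 in LPN and 0.0799 in EPN2. The libraries of Em (8.93 and 22.0 CPM) and EPN1 (12.8 and 11.4 CPM) overlapped, those of LPN (5.51 and 3.86 CPM) lay below both, and those of EPN2 (0.113 and 0.0467 CPM) lay far below the rest. The call was lost without the EPN2 line (adjusted p = 0.216) and without the EPN1 line (adjusted p = 0.0604). It was kept without Em (adjusted p = 0.0340) and without LPN (adjusted p = 0.0473).

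Averaged over both media, OTOP3 had the same order of lines, with 48.4 CPM in Em, 19.5 in EPN1, 3.01 in LPN and 0.232 in EPN2. In complete medium alone EPN1 (0.890 CPM) lay above Em (0.650 CPM). OTOP3 missed the threshold (adjusted p = 0.0576, edgeR), which it passed with extension rows left out (adjusted p = 0.0492) and with no filter on low counts (adjusted p = 0.0253). MEIS1 (adjusted p = 0.142), VIL1 (adjusted p = 0.211) and BEST4 (adjusted p = 0.448) were not called by edgeR. On the same average BEST4 and GUCA2B shared another order, with EPN1 first, then LPN, Em and EPN2. The levels were 5.19, 4.10, 2.84 and 1.74 CPM for BEST4 and 4.43, 2.05, 1.29 and 0.0113 CPM for GUCA2B. This order is that of the differentiated libraries. In complete medium EPN1 was the lowest line for BEST4 (1.37 CPM), and GUCA2B had 1 or 2 counts in each line. For OTOP3, BEST4 and VIL1 the libraries of lines next to each other in the order overlapped, and for GUCA2B those of EPN1, LPN and Em did, while both EPN2 libraries were under the floor. By this average EPN2 was the lowest line for BEST4, OTOP3, MEIS1, GUCA2B and CDX2. In differentiation medium alone Em (92.9 CPM) lay below EPN2 (95.1 CPM) for MEIS1. LPN (58.2 CPM averaged over both media) was the lowest for VIL1, below EPN2 at 99.3 CPM, EPN1 at 162 CPM and Em at 267 CPM.

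The genes most like each member were ranked by Pearson correlation of log2 CPM over the 8 libraries of 4 lines, as a description. For CDX2 they were NPC1L1 (r = 0.992), the cholesterol uptake protein of enterocytes, SOCS3 (r = 0.990) and EPHX2 (r = 0.988). For OTOP3 they were RGS6 (r = 0.981), CTSS (r = 0.980) and AOC1 (r = 0.980), the diamine oxidase of the gut lining. BEST4 was nearest to HFM1 (r = 0.966), MPP1 (r = 0.964) and ZNF3 (r = 0.957), MEIS1 to ZNF461 (r = 0.986), ZSCAN31 (r = 0.970) and IGFBP1 (r = 0.964), and VIL1 to DMD (r = 0.988), ARHGEF28 (r = 0.980) and MMP15 (r = 0.978). Between members the highest values were r = 0.798 for BEST4 with OTOP3 and r = 0.794 for BEST4 with MEIS1, and VIL1 with MEIS1 stood at r = -0.219. The 8 points share lines and media and are not independent.

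Other genes of the same cells and pathways were read through 12 lists of 174 genes, of which 157 have a row and 118, members aside, passed the filter. Of these 118, 4 rose and 2 fell in differentiation medium (5.08%, near the 6.97% of all genes), and 33 (28%) had an unadjusted p under 0.05, against 27.3% of all genes. Their median log2 fold change was 0.25, against 0.01 for all genes tested. With the line as a block 28 were called (23.7%, against 19.9% of all genes), 19 higher and 9 lower. Between lines 12 of the 118 were called (10.2%, against 5.14%), among them NPC1L1, MYO7B, AQP8, GATA4 and PDX1.

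Of the surface colonocyte genes 2 of 13 tested rose, against 2.87% of all genes, and the other 11 did not pass the test. Their log2 fold changes were positive in 13 of 13, with a median of 2.61 against 0.01 for all genes. As the lists were chosen with earlier results of these data known, these values are a description. Carbonic anhydrase CA2 rose from 4.55, 9.26, 6.54 and 18.1 CPM in complete medium in Em, LPN, EPN1 and EPN2 to 240, 97.2, 175 and 58.5 CPM (3.89 on the log2 scale, SE 0.60, adjusted p = 0.0167, edgeR). CA1 rose as well (7.76, SE 1.48, adjusted p = 0.0277), from at most 0.0731 CPM to between 0.949 and 22.8 CPM, with the highest level in LPN. The study counts carbonic anhydrases among the mature ductal genes that rose in differentiation medium, so they are not particular to gut cells. With the line as a block 6 of the 13 rose. KRT20, a keratin of the mature gut surface, did not pass the test (adjusted p = 0.117) and had 4, 0, 12 and 30 counts in complete medium and 2377 in Em, 6 in LPN, 591 in EPN1 and 8 in EPN2 in differentiation medium. Em and EPN1 were thus its highest differentiated libraries, as for OTOP3 and OTOP2, and LPN and EPN2 were both near the floor.

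Brush border hydrolases, which digest sugars and peptides at the enterocyte surface, had a median log2 fold change of 2.97 with 5 of 6 positive, and none was called. With the line as a block 2 rose, ENPEP (adjusted p = 0.0383, edgeR) and MGAM (adjusted p = 0.0300). Without it ENPEP had the smallest adjusted p (log2 fold change 2.66, adjusted p = 0.0732, edgeR). Of the lipid and retinol absorption genes, with a median of 0.99, none of 6 was called, DGAT1 being nearest (0.46, adjusted p = 0.0670), and 2 rose with the block, DGAT1 (adjusted p = 0.0326, edgeR) and RBP2 (adjusted p = 0.0382). The microvillus genes that surround villin had a median of 0.26 with none of 15 called, and CDHR5, a protocadherin that links microvillus tips, was nearest (2.80, adjusted p = 0.0679, and 0.0410 with the block, edgeR). With the block 3 microvillus genes rose and 1 fell. Other enterocyte genes ranged widely. FABP2 was at 1 count at most, sucrase-isomaltase (SI) at 9 counts at most, and APOA4 above 8 counts only in EPN1 in differentiation medium, with 92. The peptidase ANPEP reached 93.9 CPM and the disaccharidase MGAM 41.1 CPM in Em in differentiation medium, and both were under 0.05 CPM in EPN2 there. FABP1, the liver and gut fatty acid binding protein, had 1, 1, 0 and 1 counts in complete medium and 216, 4, 236 and 28 in differentiation medium.

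Beyond the members, 4 genes of the BEST4 cell list passed the filter, with 2 of 4 positive, a median log2 fold change of -0.38 and none called with or without the block. SLC12A2, the basolateral chloride loader, was nearest to the threshold and negative (-1.77, adjusted p = 0.0671, edgeR). OTOP2 and CA7 did not pass the filter and have no value in that median. CA7 had 0, 0, 0 and 6 counts in complete medium and 3, 4, 46 and 26 in differentiation medium, and NPY was under the floor in every library. Among the differentiated libraries OTOP3 and OTOP2 were highest in Em and EPN1, BEST4 and GUCA2B in EPN1 and LPN, and CA7 in EPN1 and EPN2.

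The cGMP signalling list holds genes downstream of guanylate cyclase C and other makers and breakers of cGMP, and 2 of its 13 tested genes fell and none rose, with a median of 0.07. With the line as a block 3 fell and 1 rose. PDE2A, a phosphodiesterase that breaks down cGMP and cAMP, fell by 5.44 on the log2 scale (SE 0.97, adjusted p = 0.0231, edgeR), from 0.628, 6.51, 2.57 and 7.62 CPM in Em, LPN, EPN1 and EPN2 to 0.0619, 0.209, 0.0226 and 0.0934 CPM. PDE10A, another such phosphodiesterase, fell by 2.95 (SE 0.67, adjusted p = 0.0423), from between 0.265 and 0.430 CPM to at most 0.0835 CPM. The kinase gene PRKG2, which carries the cGMP signal to the chloride channel in gut cells, had 13, 26, 75 and 0 counts in complete medium and 290, 45, 144 and 0 in differentiation medium and was not called (adjusted p = 0.468). EPN2 had no count of PRKG2 in either medium, as it had none of GUCA2B in differentiation medium.

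The TALE homeobox genes, the family of MEIS1, had a median log2 fold change of 0.14 over 10 tested. Of the relatives of the members 1 of 14 rose, the villin family gene SVIL (1.26, SE 0.21, adjusted p = 0.0189, edgeR), at 40.8 to 75.4 CPM in complete medium against 126 to 170 CPM in differentiation medium. No intestinal transcription factor of 15 was called, and ONECUT2 was nearest (3.69, adjusted p = 0.0585). With the block 1 of these 15 rose, and of the 14 relatives 2 rose and 2 fell.

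None of the 6 calls held without LPN in complete medium or without EPN1 in differentiation medium, and the largest adjusted p over single libraries left out was 0.0620 for CA2, 0.0686 for SVIL, 0.0758 for PDE2A, 0.0831 for CA1 and 0.123 for PDE10A (edgeR). CA2 also lost its call without EPN1 in complete medium. SVIL, CA1, PDE2A and PDE10A lost their calls without LPN in differentiation medium and also without EPN1 in complete medium. Em in complete medium was needed for CA1 and PDE10A, Em in differentiation medium for PDE2A and PDE10A, and EPN2 in complete medium for PDE10A. The log2 fold changes kept their sign throughout, for example 3.52 to 4.39 for CA2 and -6.12 to -5.02 for PDE2A.

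**Figure D3:**
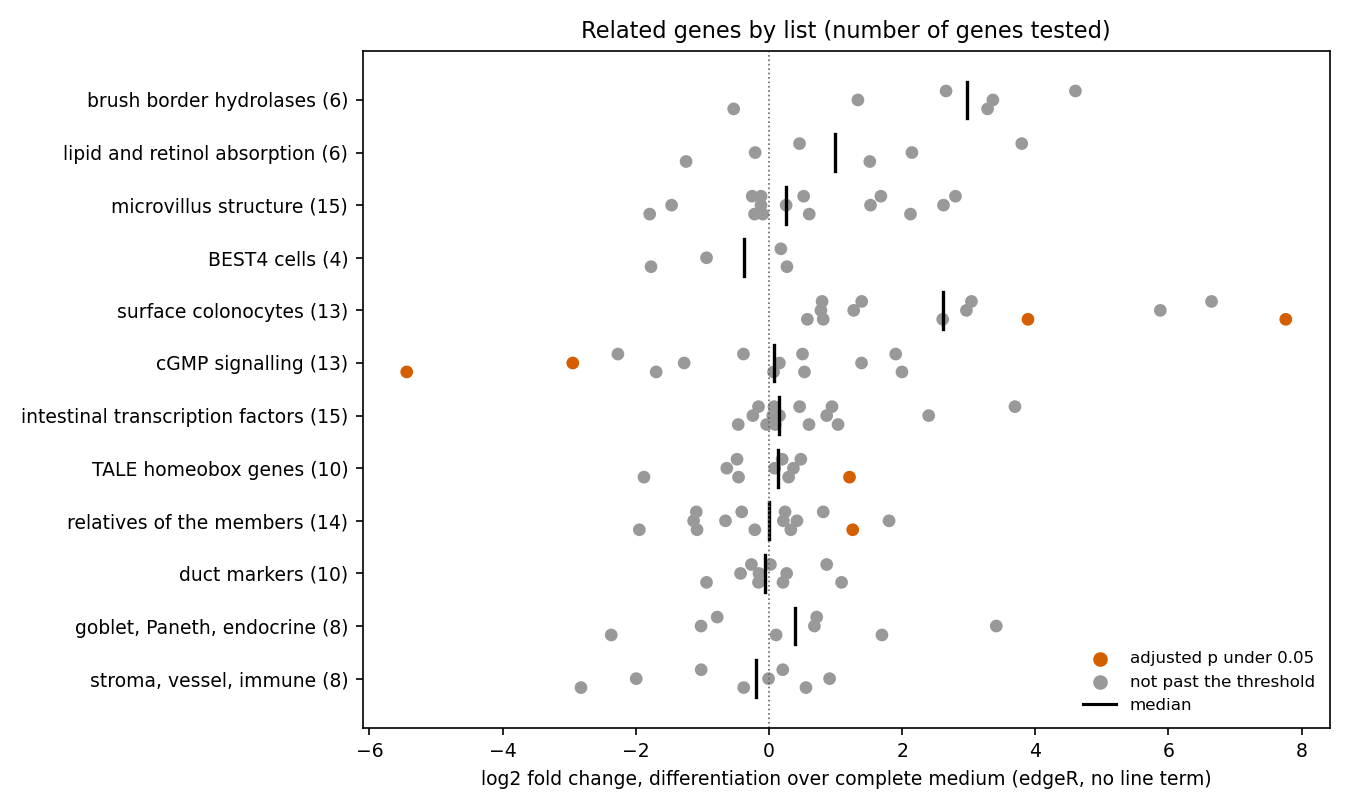
Log2 fold change of differentiation over complete medium (edgeR, no line term) for the tested genes of the 12 lists, with members left out, where each point is 1 gene, orange marks an adjusted p under 0.05 and the black bar is the list's median. All 13 surface colonocyte genes lie above 0, while the cGMP signalling genes spread to both sides around a median of 0.07. The lists were chosen with earlier results of these data known.

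Markers of other cells moved beside these values. Goblet, Paneth and endocrine markers summed to 38.1 to 1843 CPM in complete medium and to 217 to 832 CPM in differentiation medium, with EPN2 highest in both, NEUROD1 was under the floor in all libraries, and none of the 8 tested was called (median 0.40). FCGBP, a goblet cell mucin-like protein, was nearest (3.41, adjusted p = 0.0555, edgeR). Stromal, vessel and immune markers summed to 52.1 to 86.9 CPM and 57.1 to 111 CPM with none of 8 called (median -0.19), PDGFRB being nearest (-2.82, adjusted p = 0.121, and 0.0160 with the block, edgeR), and CD3E and CDH5 were under the floor throughout. The collagen gene COL3A1 had 1, 2, 1 and 0 counts in complete medium and 244, 8, 268 and 2 in differentiation medium. It was high in the same lines as OTOP3 and KRT20, and its part in those values was not tested. COL1A1, another collagen gene of the list, did not share this pattern. It had 26, 9, 16 and 2 counts in complete medium and 56, 0, 0 and 2 in differentiation medium. Duct markers had a median of -0.06 with none of 10 called, the nearest being CDH1 (1.09, adjusted p = 0.0646, and 0.0172 with the block, edgeR).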

How the data were processed

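The authors deposited estimated counts per gene made with salmon within nf-core, on a pig genome with their own annotation. The submitters' processing notes list Sscrofa11.1 and GRCh38 for the series. The study's methods tested length-scaled salmon counts, and whether the deposited table holds these is not stated, while 78.6% of the values above 0 are whole numbers. Columns were placed by medium and line from their names, and the replicate numbers of the samples were not matched to lines. Another label names an endocrine induction medium for all 8 samples. The rows of a gene, including isoform and extension rows, were summed and rounded. The 8 reporter rows (0.00142% of counts) were left out. Nothing in the sources says that the libraries of a line came from separate cultures. The p-values of the medium test without a line term therefore measure the spread between 4 lines. With the line as a block, and in the test between lines, they rest on what remains after the line and medium terms.

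Tests used edgeR 4.0.16 in R 4.3.3 (TMM, filterByExpr, quasi-likelihood, Benjamini-Hochberg over all genes tested, threshold 0.05), with DESeq2 1.42.0 as an alternative. The edgeR tests between media and between lines were tried on simulated data, and DESeq2 was not. The simulated data for the medium test held no differences between lines. They therefore do not show how that test behaves where lines pair the samples. The medium test had no line term, as the study's methods name none. Libraries of a line deviated together from the mean of their medium (r = 0.400 to 0.657 for 4 pairs, -0.479 to 0.242 for 12 pairs of different lines), so the line pairs the samples. Fold intervals are exact binomial and, like the floor of 3 counts, cover counting error only. The members and lists were chosen with earlier results of these data known, the lists from general knowledge of epithelium. Named were all members, each list's called genes or else its gene of smallest adjusted p, and the 3 genes most correlated with each tested member. Genes named outside this rule (OTOP2, CA7, NPY, KRT20, ANPEP, MGAM, RBP2, FABP1, FABP2, SI, APOA4, CDX1, PRKG2, COL3A1, COL1A1, CLCA1, CFTR, PDX1, duct keratins, genes called between lines and neighbours) were picked after their values were seen. Gene positions are from RefSeq (Sscrofa11.1). Some genes counted in the lists are not reported here by name.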

Additional observations from a re-analysis of the deposited data

How the results depend on the processing

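Low counts limit GUCA2B, SLC26A3 and the complete medium values of OTOP3 and BEST4. Genes called between media (1009) were 2884 with the line as a replicate block, 3026 with DESeq2, 5597 with DESeq2 and the block (chosen after seeing the data), 506 with no filter, and 149, 5, 0 and 1207 without the Em, LPN, EPN1 and EPN2 lines (without EPN1 edgeR gave 2220 genes at an unadjusted p under 0.05). Leaving out single libraries gave 70 to 1199 (446, 168 and 163 without Em, LPN and EPN1 in complete medium, 498, 177 and 70 without them in differentiation medium). Related genes called between media (6) were 28 with the block, 33 with DESeq2, 55 with DESeq2 and the block, 16 without EPN2, 0 without Em, LPN or EPN1, and 0 to 12 without single libraries. Genes called between lines (744) were 4376 with DESeq2, 1163 with no filter, and 104, 223, 182 and 379 without Em, LPN, EPN1 and EPN2. Members called between lines (1 in edgeR) were 4 with DESeq2, 2 with no filter, 2 with extension rows left out and 0 without EPN1. Without EPN2 the 1 member called was VIL1 (adjusted p = 0.0304, edgeR) in place of CDX2. Members called between media (0 in edgeR) were 2 with the block, 4 with DESeq2, 4 with DESeq2 and the block, 2 without the EPN2 line (OTOP3 and GUCA2B) and 0 to 3 without single libraries. Directions turned for VIL1 (-0.24) and CDX2 (-0.41) without Em in differentiation medium and for CDX2 (-0.23) without the Em line. The cause of these shifts was not tested.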
